A study of Mus musculus with 22 samples.

Results

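Phox2a, Tfap2b, Gata2 and Gata3, 4 transcription factors that take part in noradrenergic neuron identity, were followed by gene symbol through the 4 groups of libraries. All 4 were in the table of 12596 genes, and none of them was at 0 reads in any library. Phox2a encodes a paired-type homeodomain protein that binds the promoters of Dbh, the enzyme that makes noradrenaline from dopamine, and of Th, the rate-limiting enzyme of catecholamine synthesis. Tfap2b encodes the transcription factor AP-2beta, and Gata2 and Gata3 encode zinc finger proteins. In the embryo, bone morphogenetic proteins (BMPs) lead to the onset of Phox2a in the future noradrenergic cells of the hindbrain. In the sympathetic lineage the GATA and AP-2 factors act with or after it, and Gata2 and Gata3 also serve in serotonergic and GABAergic neurons.

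The study infused mice on a C57Bl/6 background, from a cross of Th-cre with Slc6a2-eGFP/Rpl10a, with hTyr (human tyrosinase, the pigment enzyme) or with the fluorescent protein EYFP. All groups carry both transgenes. The Slc6a2 transgene puts a green fluorescent tag on the ribosomal protein Rpl10a in cells that use the noradrenaline transporter gene, and Th-cre directs Cre recombinase to cells that use Th. Each of 11 animals, 5 with hTyr and 6 with EYFP, gave RNA immunoprecipitated on the tagged ribosomes (IP, labelled noradrenergic) and RNA from before the precipitation (input, labelled total hindbrain). Animals are named by the label of their IP library. The age and sex of the animals and the time after infusion are not given in the sources used here. Values are log2 CPM, the log2 of read counts scaled to library size with a small pseudocount, as deposited. The whole reads behind them totalled 15680491 to 20368032 per library in EYFP IP and 12654489 to 19043798 in hTyr IP. The input libraries held 16988860 to 21480570 reads in EYFP and 18771136 to 25100142 in hTyr.

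The IP label was checked against 8 noradrenergic effector genes, which make, package, take up or break down noradrenaline or support these cells. All 8 were called higher in IP in both treatments, where 28.5% of all genes were called higher in EYFP and 27.4% in hTyr. The 8 genes had a median log2 change of 1.70 in EYFP and 2.24 in hTyr. Their mean log2 CPM was 7.60 in library IP_501 (hTyr) and 6.10 to 7.02 in the other IP libraries, so IP_501 stood apart, and results that rest on it are given without it too. The IP was an enrichment and not a pure population. The summed level of 6 oligodendrocyte markers was 5620 to 7240 CPM in EYFP IP against 5990 to 7910 CPM in EYFP input. Of these 6, 1 was called higher and 3 lower in EYFP, and 2 higher and 3 lower in hTyr. Astrocyte markers were called higher in IP for 3 of 6 genes in EYFP and 4 of 6 in hTyr, and lower for 0. Of all genes, 28.5% were called higher and 28.1% lower in EYFP, and 27.4% and 27.0% in hTyr. None of the markers of other cell types in the table was at 0 reads in any library.

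Phox2a stood far above its input level in every animal. In EYFP IP its log2 CPM ran from 2.92 through a median of 4.05 to 4.68, on 143 to 425 reads, and in EYFP input from -0.04 through 0.39 to 1.02, on 17 to 42 reads. In hTyr IP it was 5.27, 4.45, 3.69, 3.67 and 3.76 in animals IP_501, IP_502, IP_508, IP_509 and IP_510. The same animals gave 0.77, -0.01, 0.52, 0.08 and 0.40 in hTyr input. The lowest IP library, EYFP animal IP_511, was above the highest input library, so the fractions did not overlap. Phox2a was 11.2-fold higher in IP in EYFP (log2 change 3.49, SE 0.27, limma adjusted p = 3.52e-07) and 14.1-fold higher in hTyr (3.82, SE 0.29, adjusted p = 3.28e-08). Its rise was the fifth largest of the table in both treatments (rank 5 of 12596 genes). In hTyr IP, animal IP_501 was the highest library, followed by IP_502, while the other 3 lay close together. Under mm10 Phox2a lies at chr7:101818313-101822726 on the plus strand, and 95 of its exon bases are shared with Inppl1 on the opposite strand. The strandedness of the counting is not given in the sources used here, so reads from those bases cannot be told apart.

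**Figure D1:**
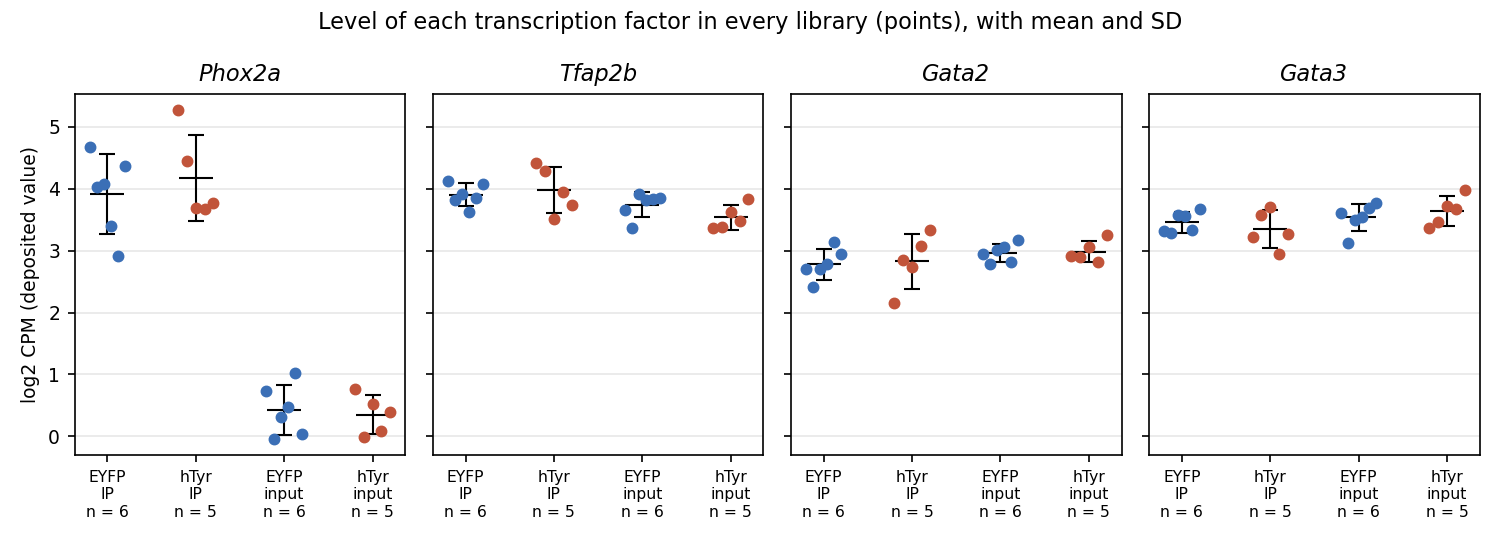
Deposited log2 CPM of Phox2a, Tfap2b, Gata2 and Gata3 (panels) in the 4 groups of libraries, with 1 point per library and the mean and SD in black. Phox2a in IP sits between 2.92 and 5.27, above all input libraries at -0.04 to 1.02, while the IP and input points of the other 3 genes overlap.

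The promoters of Phox2a and of its targets Dbh and Th are shown because these genes carry the IP signal, and that of Tfap2b because its level moved with that of Phox2a across the IP libraries. Each run is the RefSeq window of GRCm38.p6 from 250 bases before to 50 after the annotated start, written 5' to 3' on the gene's strand. Capitals mark ATTA or its reverse complement TAAT, the core letters that homeodomain proteins such as Phox2a recognise, and overlapping matches run together. The positions are chr7:101818063-101818362 on the plus strand for Phox2a, chr1:19211804-19212103 on the plus strand for Tfap2b, chr2:27165257-27165556 on the plus strand for Dbh and chr7:142899946-142900245 on the minus strand for Th.
Phox2a: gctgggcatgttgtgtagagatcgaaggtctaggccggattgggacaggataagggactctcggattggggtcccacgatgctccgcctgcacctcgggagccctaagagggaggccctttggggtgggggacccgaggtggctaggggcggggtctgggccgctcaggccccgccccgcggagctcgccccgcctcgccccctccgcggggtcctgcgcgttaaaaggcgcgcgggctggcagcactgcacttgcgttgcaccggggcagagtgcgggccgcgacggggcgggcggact
Tfap2b: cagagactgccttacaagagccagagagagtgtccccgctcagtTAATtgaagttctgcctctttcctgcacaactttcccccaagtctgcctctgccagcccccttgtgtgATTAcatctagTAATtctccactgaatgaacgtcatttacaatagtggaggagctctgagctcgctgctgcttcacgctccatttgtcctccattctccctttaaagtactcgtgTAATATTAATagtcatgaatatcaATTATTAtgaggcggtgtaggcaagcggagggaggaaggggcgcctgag
Dbh: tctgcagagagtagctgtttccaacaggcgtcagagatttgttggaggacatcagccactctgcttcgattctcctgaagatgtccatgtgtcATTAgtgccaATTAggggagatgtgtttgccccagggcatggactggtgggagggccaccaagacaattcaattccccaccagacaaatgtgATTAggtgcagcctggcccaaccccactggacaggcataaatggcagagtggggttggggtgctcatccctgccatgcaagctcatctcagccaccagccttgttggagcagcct
Th: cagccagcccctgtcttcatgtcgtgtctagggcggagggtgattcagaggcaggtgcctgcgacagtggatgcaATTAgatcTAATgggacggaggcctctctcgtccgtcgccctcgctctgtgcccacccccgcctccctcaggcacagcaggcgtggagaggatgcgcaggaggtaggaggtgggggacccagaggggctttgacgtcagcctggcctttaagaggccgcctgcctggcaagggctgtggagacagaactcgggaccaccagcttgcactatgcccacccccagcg

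The Phox2a window held 0 matches of ATTA on either strand and was 71.3% GC. The Tfap2b window held 8 matches at 48.3% GC, the Dbh window 3 and the Th window 2. Of 32851 promoter windows of this length in the same table, 58.0% held at least 1 match, 20.0% at least 3 and 4.05% at least 6. The windows of Gata3 and of both annotated starts of Gata2 held 0 matches. The AP-2 letters GCCNNNGGC, searched on both strands, occurred 3 times in the Gata3 window (67.3% GC), where 0.444% of all windows had 3 or more. They occurred once in the window of the second Gata2 start and not in those of Phox2a, Tfap2b, Dbh and Th. The GATA spellings AGATAA and TGATAA, searched on both strands, occurred in none of these windows, against 11.2% and 9.05% of all windows. Other spellings around GATA were not searched. The shorter run GATA does occur in the Phox2a and Gata3 windows, and on the other strand in the Tfap2b window. The shares are over all windows and were not matched for GC content, so they do not show that a count is rare among like windows. A match is a run of letters and not a binding site, and no match says only that these letters are not in this window.

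Tfap2b had nearly the same level in both fractions. Its log2 CPM in EYFP ran from 3.62 through 3.88 to 4.13 in IP and from 3.37 through 3.83 to 3.91 in input. In hTyr IP it was 4.41, 4.28, 3.51, 3.95 and 3.74 in animals IP_501, IP_502, IP_508, IP_509 and IP_510, and in hTyr input 3.36, 3.38, 3.63, 3.48 and 3.84. The fractions overlapped in both treatments, and in hTyr the highest IP libraries were again animals IP_501 and IP_502. In EYFP the difference did not pass the threshold (log2 change 0.16, SE 0.11, limma adjusted p = 0.229). In hTyr Tfap2b was 1.36-fold higher in IP (0.44, SE 0.17, adjusted p = 0.0328). That call ended without animal IP_501, IP_502 or IP_509 (adjusted p = 0.171, 0.171 and 0.0695), and with quantile normalization or median centring (0.0516 and 0.0629). Tfap2b lies at chr1:19208914-19238576 on the plus strand (mm10).

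Gata2 and Gata3 were not enriched in IP. Gata2 ran from 2.41 through 2.74 to 3.14 log2 CPM in EYFP IP and from 2.78 through 2.98 to 3.17 in EYFP input. In hTyr it was 2.15, 2.84, 2.74, 3.07 and 3.34 in IP and 2.91, 2.90, 3.05, 2.81 and 3.25 in input, in animals IP_501, IP_502, IP_508, IP_509 and IP_510. The lowest Gata2 level was that of library IP_501, the library in which Phox2a was highest, and the fractions overlapped. The log2 change was -0.18 in EYFP (SE 0.13, limma adjusted p = 0.233) and -0.15 in hTyr (SE 0.20, adjusted p = 0.533). Gata3 ran from 3.28 through 3.44 to 3.67 in EYFP IP and from 3.13 through 3.57 to 3.76 in EYFP input. In hTyr it was 3.22, 3.58, 3.71, 2.95 and 3.27 in IP and 3.37, 3.46, 3.72, 3.67 and 3.98 in input, in the same order. Its IP and input libraries overlapped too, with a log2 change of -0.08 in EYFP (SE 0.12, adjusted p = 0.569) and -0.29 in hTyr (SE 0.16, adjusted p = 0.136). Gata2 lies at chr6:88193891-88207032 on the plus strand and Gata3 at chr2:9857078-9890034 on the minus strand (mm10). Gata3 shares 155 exon bases with Gm13256 on the opposite strand and 77 with 9230102O04Rik on its own strand, neither of which is analysed here.

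In EYFP, 1 of the 4 factors was thus higher in IP, where 28.5% of all genes tested were called higher. In hTyr 2 of 4 were, against 27.4% of all genes. The median log2 change of the 4 was 0.04 in EYFP and 0.14 in hTyr, beside -0.03 and -0.04 over all genes. RNA per cell and the number of cells that contribute it cannot be told apart in these bulk libraries.

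The enrichment was also read within each animal, as IP minus input log2 CPM of the same replicate number. Phox2a was higher in IP in 11 of 11 animals, by 3.64 ± 0.78 (SD, n = 11; range 1.90 to 4.50; exact sign-flip p = 0.000977, the smallest these pairs can give). Tfap2b was higher in 8 of 11 animals, by 0.29 ± 0.42 (SD, n = 11; exact p = 0.042). Gata2 was higher in 3 of 11 (-0.17 ± 0.31, exact p = 0.105) and Gata3 in 4 of 11 (-0.18 ± 0.31, exact p = 0.0908). With each library centred on its median, Tfap2b no longer passed (0.23, exact p = 0.11), while Gata2 (-0.23, exact p = 0.04) and Gata3 (-0.24, exact p = 0.0215) fell below input. Without any one of animals IP_501, IP_502, IP_504, IP_505 or IP_509 the Tfap2b enrichment gave exact p = 0.084, and without IP_512 it gave 0.0566. Without animal IP_511, Gata2 fell by 0.22 (exact p = 0.0332). These 4 tests are two-sided, are not adjusted, and were added after the data were seen.

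Set against each other within animals, the 4 factors fell in the order Phox2a, Tfap2b, then Gata2 and Gata3 together. Phox2a exceeded Tfap2b in enrichment by 3.35 ± 0.56, Gata2 by 3.81 ± 0.99 and Gata3 by 3.81 ± 0.74 (log2, SD, n = 11), in 11 of 11 animals each (exact sign-flip p = 0.000977). Tfap2b exceeded Gata2 by 0.46 ± 0.60 in 9 of 11 animals (exact p = 0.0244) and Gata3 by 0.46 ± 0.49 in 8 of 11 (exact p = 0.0127). Gata2 and Gata3 differed by 0.01 ± 0.56 (exact p = 0.965), which is within their spread. These are 6 pairs, with two-sided p-values that are not adjusted, and these tests too were added after the data were seen.

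**Figure D2:**
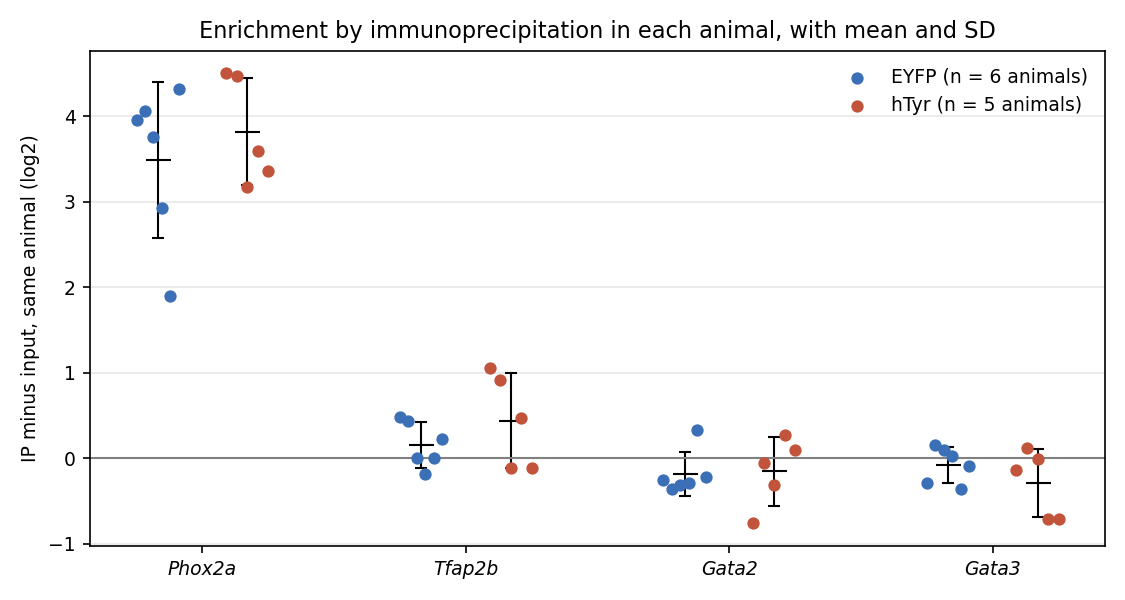
IP minus input log2 CPM of the same animal (vertical axis) for the 4 factors, with 1 point per animal, blue for EYFP and red for hTyr, and the mean and SD in black. Phox2a sits between 1.90 and 4.50 in all animals, while Gata2 and Gata3 scatter around 0.

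Levels of different genes were compared per kilobase of merged exons (GENCODE M21), as log2 CPM per kilobase. In EYFP IP the order was Phox2a at 2.88 ± 0.65, Gata3 at 1.46 ± 0.17, Tfap2b at 1.24 ± 0.19 and Gata2 at 0.35 ± 0.25 (SD, n = 6). Gata3 and Tfap2b, the neighbours in the middle, overlapped (1.29 to 1.68 and 0.95 to 1.47), while all Phox2a libraries (from 1.89) were above Gata3 and all Gata2 libraries (up to 0.70) below Tfap2b. In EYFP input the order was Gata3 at 1.54 ± 0.22, Tfap2b at 1.08 ± 0.20, Gata2 at 0.53 ± 0.15 and Phox2a at -0.60 ± 0.40. Phox2a was thus the highest of the 4 in the precipitated RNA and the lowest in the hindbrain input. The hTyr groups had the same orders, with Phox2a at 3.15 ± 0.70 in IP and -0.67 ± 0.32 in input (SD, n = 5).

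Of 8 listed genes of the same families (paralogs), 1 was in the table, Tfap2d, an AP-2 gene like Tfap2b. Tfap2d did not pass between IP and input in either treatment (log2 change 0.11 in EYFP and -0.13 in hTyr, limma adjusted p = 0.628 and 0.75).

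Of 14 other factors of noradrenergic development listed, 9 were in the table, and none of these 9 was called higher in IP. In EYFP 7 of 9 were lower and in hTyr 5 of 9, with median log2 changes of -0.45 and -0.46. Over all genes 28.1% were called lower in EYFP and 27.0% in hTyr, and the median change was -0.03 and -0.04. Sox4, a factor of immature neurons, was at -0.72 and -0.85, and En2, which patterns the midbrain and hindbrain, at -0.67 and -0.67. Insm1, a zinc finger factor of newborn neurons, was lower in EYFP (-0.51) and in hTyr (-0.46, limma adjusted p = 0.0477). The hTyr call ended without animal IP_502, IP_509 or IP_510 (adjusted p = 0.224, 0.0763 and 0.127), with quantile normalization (0.0679) and with voom (0.0611). Hes1, a Notch target, was lower in hTyr (-0.62) and just missed the threshold in EYFP (-0.37).

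Most partners of the GATA and AP-2 factors were, like Gata2 and Gata3, not called higher in IP. Of 16 cofactors, 9 were lower in IP in each treatment and 1 higher (medians -0.24 in EYFP and -0.31 in hTyr), beside 28.1% of all genes lower and 28.5% higher in EYFP and 27.0% and 27.4% in hTyr. Zfpm1, the GATA cofactor FOG-1, was at -0.71 and -0.81, and Tal1, which forms complexes with GATA proteins, at -0.52 and -0.58. Kctd15, an inhibitor of AP-2 factors, was at -0.43 and -0.71. The exception was Zfpm2 (FOG-2), at 0.37 and 0.49, which was picked out after its values were seen. Of 20 BMP pathway genes in the table, 2 were higher and 5 lower in EYFP, and 3 higher and 7 lower in hTyr (medians -0.12 and -0.08), where the same shares of all genes apply. The receptors Bmpr2 (0.78 and 1.17) and Acvr2a (0.40 and 0.86) were higher, and the receptor Acvr2b (-0.39 and -0.60) and the inhibitor Smad7 (-0.67 and -0.73) lower.

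Some other neuron types known to use these factors had measurable markers in the IP, and cells other than neurons are not covered here. Tph2, which makes serotonin, was higher in IP by 1.23 in EYFP and 1.28 in hTyr, and the serotonin transporter Slc6a4 by 0.41 and 0.35, while Fev, the serotonergic transcription factor, was lower in EYFP (-0.55) and did not pass in hTyr (-0.26). The receptor Htr1a was lower in both (-0.57 and -0.42). The 4 serotonergic markers in the table summed to 84.7 to 121 CPM in EYFP IP and 70.5 to 82.5 CPM in EYFP input. For GABAergic neurons, the enzymes Gad1 (0.84 and 0.88) and Gad2 (0.33 and 0.48) were higher and Tal1 (-0.52 and -0.58) lower, while Slc6a5 did not pass (-0.12 and -0.08) and Slc32a1 passed in EYFP only (0.22 and 0.12). The 5 GABAergic and glycinergic markers summed to 643 to 946 CPM in EYFP IP and 562 to 690 CPM in EYFP input. In hTyr the serotonergic sums were 101 to 153 CPM in IP and 65.4 to 90.4 CPM in input, and the GABAergic and glycinergic sums 655 to 934 and 531 to 670 CPM. For motor neurons, some of which use Phox2a, Chat was higher by 0.55 and 0.66 and Slc5a7 by 1.27 and 1.49. Slc18a3 did not pass (-0.04 and -0.20). The 3 cholinergic markers summed to 41.3 to 68.1 CPM in EYFP IP and 31.8 to 43.4 CPM in EYFP input. In hTyr these sums were 52.2 to 71.1 CPM in IP and 34.2 to 45.6 CPM in input. The part of these cells in the levels of Phox2a, Gata2 and Gata3 was not tested.

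The genes whose pattern was closest to that of a factor were found by the root mean square difference of centred log2 CPM over the 22 libraries. For Phox2a they were Gal (0.39), Dbh (0.42), Slc6a2 (0.56), Calcr (0.70) and Th (0.76), where the median of all genes was 1.91. Gal encodes the neuropeptide galanin, Slc6a2 the noradrenaline transporter and Calcr the calcitonin receptor. For Tfap2b the nearest were Rnf6, Iars and Sde2 (0.17 each), Cdv3 and Acbd3 (0.18 each), against a median of 0.37. For Gata2 they were Pim3 (0.17), Ube2l6 (0.18), Galnt6, Mylip and Lfng (0.19 each; median 0.36), and for Gata3 Tspan2 (0.15), Lpar1, Cobll1, Wnk1 and Meis1 (0.18 each; median 0.33). Tfap2b was place 2808 in the list of Phox2a, at 1.72. Phox2a varied by an SD of 1.93 over the 22 libraries and Tfap2b by 0.28, and a gene that varies little lies near many others by this measure.

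Across the 11 IP libraries alone, Phox2a and Tfap2b moved together and with the noradrenergic genes. The effector score, the mean log2 CPM of the 8 effector genes, ran from 6.10 to 7.02 in EYFP IP and was 7.60, 6.97, 6.30, 6.46 and 6.67 in hTyr IP animals IP_501, IP_502, IP_508, IP_509 and IP_510. Phox2a rose with it (Pearson r = 0.917, permutation p = 5e-05, adjusted over the 10 relations computed 0.0005; Spearman rho = 0.882, permutation p = 0.0006, n = 11). Leaving out the 2 libraries farthest from the median score gave r = 0.804, and the 6 EYFP libraries alone r = 0.883. The 5 hTyr libraries are too few for a value of their own. Phox2a was highest where the score was highest, in animal IP_501, and lowest where it was lowest, in animal IP_511.

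Tfap2b, which was hardly enriched, followed the same score (r = 0.843, permutation p = 0.00079, adjusted 0.00395; rho = 0.764, permutation p = 0.00855, n = 11). Without the 2 farthest libraries r was 0.715, and in EYFP alone 0.851. Phox2a and Tfap2b were related at r = 0.786 (permutation p = 0.00412, adjusted 0.0137, and rho = 0.764, permutation p = 0.00835, n = 11). Without the 2 libraries farthest from the median Phox2a level r was 0.837, and in EYFP alone 0.735. Both Tfap2b relations rest in part on animal IP_501. Without it r was 0.757 for the score (adjusted permutation p = 0.0586) and 0.667 for Phox2a (adjusted permutation p = 0.115), while Phox2a with the score stayed at 0.858 (adjusted permutation p = 0.0138).

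Gata2 and Gata3 showed no such relation. Gata2 ran against Phox2a (r = -0.649, permutation p = 0.0311, adjusted 0.0778, and rho = -0.582, permutation p = 0.065, n = 11). Without the 2 libraries farthest from the median Phox2a level r was -0.236, so the value rests on those libraries. Taken as deviations from the treatment means, r of Gata2 with Phox2a was -0.683 (adjusted permutation p = 0.0467), and without animal IP_501 it was -0.40 (adjusted 0.624). With the effector score, Gata2 had r = -0.435 (permutation p = 0.183, adjusted 0.365; rho = -0.273) and Gata3 r = -0.132 (permutation p = 0.698, adjusted 0.873; rho = -0.0909). The relations of Gata3 with Phox2a (r = -0.0234), Tfap2b (r = -0.235) and Gata2 (r = -0.0475), and of Gata2 with Tfap2b (r = -0.38), did not pass either (adjusted permutation p = 0.946, 0.696, 0.946 and 0.419). In all, 3 of the 10 relations passed, and 1 of 10 without animal IP_501. The share of all genes that follow the effector score this closely was not computed, so these relations cannot be called particular to Phox2a and Tfap2b.

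**Figure D3:**
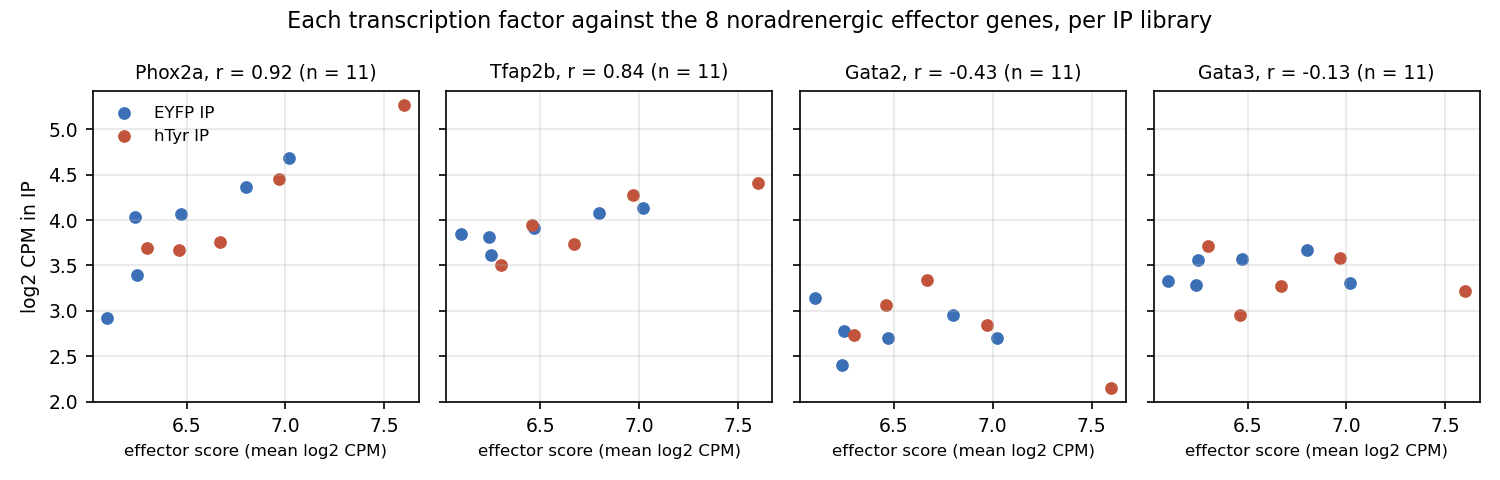
Log2 CPM of each factor in IP (vertical axis, 1 panel per gene) against the effector score, the mean log2 CPM of 8 noradrenergic effector genes in the same library (horizontal axis), with EYFP in blue and hTyr in red. Phox2a (r = 0.917) and Tfap2b (r = 0.843) rise with the score over 11 libraries, with hTyr animal IP_501 at the far right at 7.60, while Gata2 and Gata3 show no relation that passed the test.

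The study's central contrast was hTyr against EYFP. In IP none of the 4 factors passed the threshold, and none had an unadjusted p under 0.05, where 0.0556% of all genes were called (7 of 12596, with 780 at an unadjusted p under 0.05). Phox2a differed by 0.26 on the log2 scale (SE 0.31, 95% interval -0.40 to 0.92, limma adjusted p = 0.923). Tfap2b differed by 0.08 (interval -0.25 to 0.41), Gata2 by 0.05 (-0.37 to 0.48) and Gata3 by -0.11 (-0.42 to 0.21), with adjusted p = 0.956, 0.982 and 0.932. The hTyr and EYFP libraries overlapped for all 4. The voom test in limma on the recovered reads also called 0 of the 4. The Phox2a interval spans a 0.40 log2 fall and a 0.92 rise, so changes within that range are not excluded. Without animal IP_501 the Phox2a difference was -0.01, and with the effector score as a covariate it was -0.20 (adjusted p = 0.999), so its sign changed without that animal and with that covariate.

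In input the result was of the same kind. None of the 4 passed, against 0.00794% of all genes (1 of 12596, the transporter Slc6a2, with 382 at an unadjusted p under 0.05). Phox2a differed by -0.07 (SE 0.28, interval -0.67 to 0.52; 0.23 with quantile normalization), Tfap2b by -0.20 (SE 0.12, -0.45 to 0.05), Gata2 by 0.02 (-0.22 to 0.26) and Gata3 by 0.10 (-0.17 to 0.38), with limma adjusted p of 0.99 or above. None had an unadjusted p under 0.05, and voom called 0 of 4. Slc6a2 was lower in hTyr input by 0.91 (log2 change -0.91, SE 0.13, adjusted p = 0.0339) with Phox2a and Dbh (-0.24, adjusted p = 0.99) not past the threshold beside it, and that call ended on leaving out any one of 9 animals, with the change still at -0.84 to -0.95.

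The difference of the hTyr effect between IP and input, fitted over all 22 libraries, was 0.33 for Phox2a (SE 0.42), 0.28 for Tfap2b (SE 0.20), 0.03 for Gata2 (SE 0.23) and -0.21 for Gata3 (SE 0.20). None passed (limma adjusted p = 0.996, 0.996, 0.997 and 0.996; 0 with an unadjusted p under 0.05; 0 by voom), against 0.00794% of all genes. That is 1 gene of 12596, with 417 at an unadjusted p under 0.05, and 5 genes with the replicate number as a block. The enrichment per animal gave the same picture. hTyr minus EYFP was 0.33 for Phox2a, 0.28 for Tfap2b, 0.03 for Gata2 and -0.21 for Gata3, with two-sided exact permutation p = 0.526, 0.307, 0.87 and 0.284 (n = 5 and 6, smallest possible 0.00216).

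**Figure D4:**
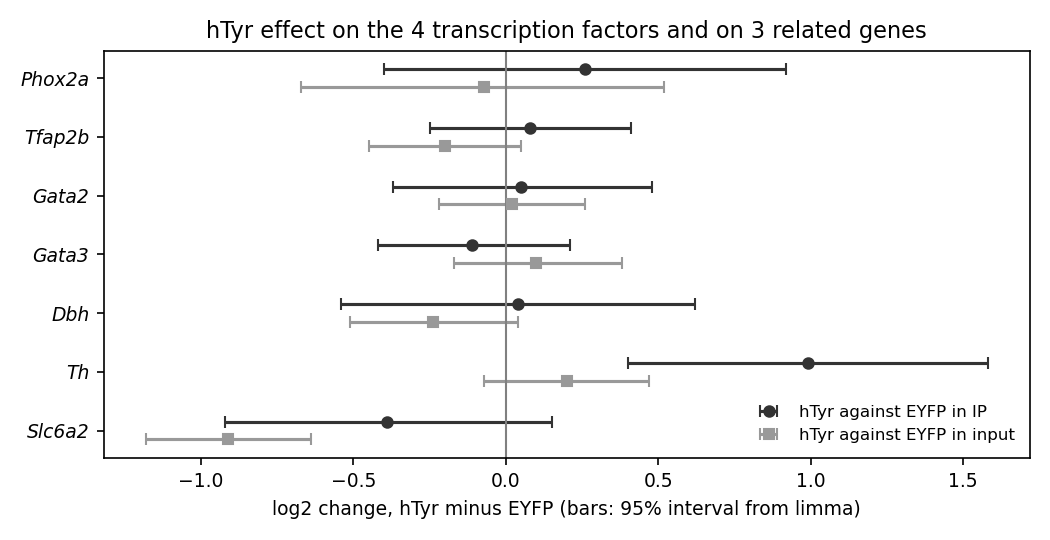
Log2 change of hTyr minus EYFP (horizontal axis) with its 95% interval from limma, for the 4 factors and for Dbh, Th and Slc6a2, in IP (dark circles) and in input (grey squares). The intervals of Phox2a, Tfap2b, Gata2 and Gata3 all include 0. Those of Th in IP (0.40 to 1.58) and of Slc6a2 in input (change -0.91) do not.

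Of the Phox2a targets, Th differed between hTyr and EYFP in IP by 0.99 (SE 0.28, limma adjusted p = 0.533) and Dbh by 0.04 (SE 0.27, adjusted p = 0.988), and neither passed. With the effector score as a covariate Th passed (0.54, limma adjusted p = 0.0241), as did the transporter Slc6a2 in the opposite direction (-0.78, adjusted p = 0.00797, against -0.39 and 0.854 without it), while Phox2a and Dbh did not. The score includes Th, Dbh and Slc6a2 themselves.

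The rest of the pathway gave no call between treatments. Of the 9 developmental factors, the 16 cofactors and the 20 BMP genes, 0 passed in IP and 0 in input by limma. At an unadjusted p under 0.05 there were 0, 1 and 3 of them in IP and 1, 3 and 0 in input. The medians lay between -0.06 and 0.04. Cerebellar markers were lower in value with hTyr in both fractions, without passing the test. Their median difference was -0.87 in IP and -1.07 in input, with 0 of 5 past the threshold and 3 and 4 of 5 at an unadjusted p under 0.05. Their summed level was 151 to 215 CPM in hTyr input and 156 to 344 CPM in EYFP input, and 184 to 252 and 200 to 429 CPM in IP. Tfap2b is known from cerebellar interneurons, and the part of cerebellar RNA in its input difference of -0.20 was not tested.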

How the data were processed

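RNA-seq was done on IP and input RNA of 11 mice. Per the labels, a company made the libraries, and per the submitters' processing notes STAR and featureCounts were used with mm10. Versions, the low-count filter and strandedness are not given in the sources used here. The authors deposited log2 values for 12596 genes. These were tested to be log2 CPM with a pseudocount averaging 2 reads, since 100% of the back-transformed values came out as whole reads within 0.05 reads, and depth is given in these reads. Read totals speak only of counting error, as no molecular identifiers are stated.

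Genes were tested with limma 3.58.1 in R 4.3.3 (lmFit, eBayes with trend) on the deposited values, with Benjamini-Hochberg adjustment over all genes and a threshold of 0.05. The code was tested on simulated data. The comparisons were IP against input within each treatment, hTyr against EYFP within each fraction, and their interaction. The main fits held no term for the animal, so IP and input libraries of the same animal were treated as independent. The replicate block was an alternative. Replicate numbers pair IP and input: same-number libraries deviated together (r = 0.279 to 0.626 over 11 pairs, mean 0.448; different numbers, mean -0.0428). Libraries of a group correlated at r = 0.963 to 0.991. Each number in the titles was taken as 1 animal; if it is not, p-values measure only the spread between these samples. Whether all animals were infused and processed together is not stated.

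Permutation tests for correlations used 100000 resamples in Python 3.11.15, and tests of single values were exact. Exon lengths came from GENCODE M21, and promoters from RefSeq (6 of 6 genes matched). Alternatives were no trend, quantile normalization, median centring, the upper 75% of genes, log2(CPM + 1), voom, the replicate block, the effector score as a covariate and leaving out each animal. The 4 members always appear, and from each other list up to 4 genes past the threshold with the greatest change, besides Dbh, Th, Slc6a2, Tfap2d and the 5 genes most like each member. Some results are not reported here. Members and lists were chosen with earlier results of these data known.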

Additional observations from a re-analysis of the deposited data

Results flagged for a closer look

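Groups of 5 or 6 libraries were searched for a single value set apart from the rest by the Dixon criterion, over 40 groups of values. Chance gives about 2.0 such groups, and 2 were found. Gata2 was higher in IP than in input by 0.33 in EYFP animal IP_511, while the other 5 EYFP animals lay between -0.36 and -0.22, a gap of 0.797 of the range. Animal IP_511 was also the animal with the smallest Phox2a enrichment (1.90) and the lowest effector score in IP (6.10). Tfap2d, the AP-2 paralog, was at 1.05 log2 CPM in hTyr IP animal IP_502, on 25 reads, while the other 4 lay between 2.51 and 3.07, a gap of 0.722 of the range.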

How the results depend on the processing

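The Phox2a enrichment passed under each alternative in which it was tested, at 2.83 to 3.80 in EYFP and 3.12 to 4.09 in hTyr. The filter that keeps the upper 75% of genes by mean level leaves only Tfap2b of the 4 in the EYFP fit and none in the hTyr fit, so the 0 members called there say nothing of the enrichment. In hTyr the members called were 1 with quantile normalization, 1 with median centring and 1 to 2 without a replicate (2 in the main result), since Tfap2b lost its call.

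With the replicate block, Phox2a was called at 3.49 in EYFP (limma adjusted p = 2.69e-09) and Tfap2b in hTyr at 0.44 (adjusted p = 0.0251). The block moved the interaction count from 1 to 5 genes and changed no call of a member. No block could be made within a fraction, since no number occurs in both treatments.

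The hTyr differences of the members changed sign without changing a call. With the effector score as a covariate, IP differences were -0.20 for Phox2a, -0.10 for Tfap2b and -0.38 for Dbh, none of them called, while Th (0.54, adjusted p = 0.0241) and Slc6a2 (-0.78, adjusted p = 0.00797) gained a call. With quantile normalization Phox2a in input was 0.23. Without a replicate, IP differences ran from -0.01 to 0.42 for Phox2a, -0.03 to 0.19 for Tfap2b, -0.08 to 0.22 for Gata2, -0.47 to 0.03 for Tfap2d and -0.21 to 0.19 for Dbh. Input differences ran from -0.18 to 0.05 for Phox2a, -0.05 to 0.06 for Gata2, and -0.16 to 0.07 for Tfap2d. The interaction of Gata2, by limma and per animal, ran from -0.07 to 0.18, and Tfap2d in hTyr IP against input from -0.25 to 0.08.

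All genes called without a replicate were 3 to 11 for hTyr in IP, 0 to 2 in input and 0 to 5 for the interaction, and 0 in input with the upper 75% of genes. Relations that passed were 1 to 3 of 10 without a replicate. Their r ran from -0.19 to 0.19 for Phox2a with Gata3 (0.03 as deviations from treatment means), -0.30 to 0.18 for Gata2 with Gata3, and -0.62 to 0.07 and -0.28 to 0.09 for the effector score with Gata2 and Gata3. Enrichment differed from 0 for 1 to 3 members, and Gata2 minus Gata3 ran from -0.09 to 0.07. The causes of these changes were not tested. Phox2a input levels rest on 17 to 42 reads, which limits any difference between treatments there.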
